A study of Mus musculus with 12 samples.

Results

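The Zfp genes are the mouse genes whose symbols read Zfp followed by a number, most of which encode C2H2 zinc finger proteins, and their RNA was measured here in the nucleus and cytoplasm of growing oocytes. Members were taken by level: a symbol of this form and 5 FPKM or more in any 3 of the 12 libraries, leaving out Zfp36, Zfp57 and Zfp488. This gave 178 members of 340 such symbols and of 23235 gene entries, and 9354 genes of any name met the same level rule. The third highest of the 12 values, which decides membership, was 5.03 FPKM in Zfp27, 5.09 in Zfp580 and 5.11 in Zfp933, just inside, and 4.89 in Zfp759, 4.85 in Zfp691 and 4.81 in Zfp954, just outside. FPKM scales fragments by transcript length and by library size, so values can be set side by side between genes. A member that meets the rule only through the group where it is high had to differ between groups, and 10 members reached 5 FPKM in no WT library, among them Zfp618, Zfp697 and Zfp503. The same holds between compartments for the 8 members that reached 5 FPKM in nuclei only and the 9 in cytoplasms only.

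The libraries came from oocytes of day-14 mice, either wild type (WT) or Mtr4-null, that is without Mtr4, whose nuclei and cytoplasms had been parted by micromanipulation. The 4 groups were WT nucleus, WT cytoplasm, Mtr4-null nucleus and Mtr4-null cytoplasm, with 3 libraries each and 10 nuclei or 10 cytoplasms pooled per library. The labels name neither the strain nor the allele or deleter line, and give no further treatment. Whether the 3 libraries of a group are separate mice is not stated, so the p-values cover the spread among these libraries, which may be technical. In bulk RNA of this kind, fewer molecules per oocyte and a smaller share of the mapped fragments cannot be told apart.

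A C2H2 zinc finger is a short protein fold in which cysteines and histidines hold a zinc ion, and arrays of fingers read DNA sequence. Many of these proteins also carry a KRAB box, which binds TRIM28 and brings SETDB1 and heterochromatin to the bound site, often a transposon. KRAB genes arose largely by local duplication and often sit in clusters of related neighbours. In oocytes and early embryos a few of them, with ZFP57 the best described, protect imprinted methylation. MTR4, whose gene is listed as Skiv2l2, is the helicase that passes nuclear RNA to the exosome, the complex that trims and degrades it.

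Skiv2l2 stood at 21.1, 19.4 and 20.2 in WT cytoplasms against 1.04, 0.315 and 0.70 FPKM in Mtr4-null ones. Among nuclei labelled Mtr4-null, replicate 1 held 7.98 FPKM, above the WT nuclei at 6.06, 2.45 and 5.37 FPKM, while replicates 2 and 3 held 0.182 and 1.12 FPKM. Replicate 3 of these nuclei lay with the cytoplasms on the first principal component of the members, at 4.67 against 6.67 to 9.79 in the 6 cytoplasms and -13.1 to -7.80 in the other 5 nuclei. It still held the nuclear RNA Malat1 at 154.5 FPKM, against at most 3.24 FPKM in the Mtr4-null cytoplasms. WT nuclei held 262 to 596 FPKM. Kcnq1ot1, at 12.98 against at most 0.437 FPKM, also stood far above those cytoplasms. Ipw, at 6.21 FPKM, was above them (at most 0.820) but near the highest WT cytoplasm (5.05), with WT nuclei at 94.8 to 150.7 FPKM. Airn, at 4.70 FPKM, lay within the Mtr4-null cytoplasms (3.39 to 6.62) and below WT nuclei (18.9 to 38.5 FPKM). The nuclear RNAs thus did not all place this library with the nuclei. Nuclear results are therefore given with and without these libraries. The relative depth, estimated from the lowest values shared between libraries, was 0.132 to 0.437 in nuclei and 0.52 to 1.63 in cytoplasms, against 1 in WT cytoplasm replicate 1, so nuclear values of low genes are the less precise. All 12 listed oocyte markers were found and summed to 11740 to 17450 FPKM in the cytoplasms. The 13 granulosa cell markers summed to 34.2 to 41.1 FPKM in the WT and 20.2 to 27.1 FPKM in the Mtr4-null cytoplasms. Most of this was Nr5a2, at 26.6 to 30.6 and 15.5 to 20.3 FPKM. Over the 6 cytoplasms Cyp19a1 stood at 1.23 to 5.51 and Kitl at 1.28 to 3.49 FPKM, and Inha reached 2.41 FPKM. Amh, Amhr2 and Foxl2 were below 1 FPKM in every cytoplasm. In nuclei the list summed to 14.9 to 23.5 FPKM in WT and 7.57 to 29.6 FPKM in those labelled Mtr4-null. There Amhr2 stood at 2.64, 0.874 and 2.77 FPKM in WT nuclei, and Amh at 1.70 FPKM in replicate 1 of those labelled Mtr4-null. Of the stroma markers, Col1a1 and Col3a1 stood at 18.4 and 6.25 FPKM in WT nucleus replicate 2, against at most 0.502 and 0.0341 FPKM elsewhere.

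The members were expressed at moderate levels and mostly in both compartments. The median of the group means was 11.2 FPKM in WT cytoplasm, 5.70 in WT nuclei, 11.7 in Mtr4-null cytoplasm and 6.31 in nuclei labelled Mtr4-null. Over all genes that met the level rule these medians were 17.9, 8.85, 18.2 and 10.5 FPKM, higher in each group. Of the 178 members, 45 reached 5 FPKM in all 12 libraries, 128 in all 6 cytoplasms, 9 in cytoplasms only and 8 in nuclei only. The members together took 0.805 ± 0.017% of the summed FPKM in WT cytoplasms and 0.908 ± 0.041% in Mtr4-null cytoplasms (SD, n = 3; the nucleus-rich Scarna2, ribosomal and small RNAs left out of the sum), which did not overlap (exact two-sided permutation p = 0.1, the lowest possible with 3 against 3; 0.133 after adjustment over 4 comparisons). The share was 0.582 ± 0.036% in WT nuclei, and 0.582, 0.392 and 0.812% in the 3 nuclei labelled Mtr4-null, where replicate 3 stood at the level of the WT cytoplasms. Over the sum of all genes, with those RNAs kept in, the cytoplasms overlapped (0.750 ± 0.041% in WT and 0.814 ± 0.102% in Mtr4-null, exact two-sided permutation p = 0.4) and the share in WT nuclei was 0.0855%, so both the separation and the nuclear level depend on what is left out.

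The most abundant members in WT cytoplasm were Zfp296, which has been described with pluripotency factors and heterochromatin, Zfp655 and Zfp212. Zfp296 was at 122, 124 and 133 FPKM in WT cytoplasms and 31.2, 45.6 and 28.8 FPKM in WT nuclei. Zfp655 averaged 124 ± 11.7 FPKM and Zfp212 107 ± 1.93 FPKM in WT cytoplasm (SD, n = 3), so Zfp655 lay within the spread of Zfp296 and all 3 values of Zfp212 lay below those of Zfp296. Next came Zfp664 at 94.1 ± 4.03 FPKM, then Zfp828 (Champ1, a protein of the kinetochore and spindle) at 72.0 ± 8.21, Zfp598 (a ubiquitin ligase that senses collided ribosomes) at 66.8 ± 3.32, Zfp207 (BuGZ, a partner of the spindle checkpoint protein BUB3) at 65.8 ± 2.92 and Zfp592 at 65.7 ± 6.05 FPKM. These last 4 did not differ beyond their spread. In WT nuclei Zfp277, described as a partner of the Polycomb protein BMI1, stood alone at 482 ± 147 FPKM, ahead of Zfp655 at 43.7 ± 16.7, Zfp212 at 42.5 ± 0.783 and Zfp296 at 35.2 ± 9.06 FPKM.

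In the cytoplasm, 5 members were higher in Mtr4-null than in WT oocytes and none was lower at an adjusted p below 0.05 (limma, one fit of the 4 groups on log2(FPKM + 1)). They were Zfp618, Zfp697, Zfp503, Zfp316 and Zfp607. Among all 13157 genes tested, 1.17% were called higher and 0.714% lower, and among genes that met the level rule 1.07% and 0.716%. The members' share, 2.81% higher, rests on few genes, 3 of which met the level rule only through Mtr4-null libraries. At an unadjusted p below 0.05, 21 members were higher and 8 lower, counts with no share of all genes at that threshold beside them. The median difference over the members was 0.08 on the log2 scale, against 0 over all genes tested, and 0.09 and 0.06 under median-of-ratios and quantile scaling.

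Zfp618, which encodes a protein described as a partner of the hydroxymethylcytosine reader UHRF2, stood at 0.0273, 0 and 0.0966 in WT cytoplasms against 6.63, 10.2 and 4.89 FPKM in Mtr4-null ones. The 3 WT nuclei and replicate 1 of the nuclei labelled Mtr4-null listed it at 0, and it was at 5.93 and 11.4 FPKM in replicates 2 and 3. Its RNA was thus at or near 0 in every WT library and in replicate 1 of the nuclei labelled Mtr4-null, and above 4 FPKM in the other 5 Mtr4-null libraries. The relative depth was 0.145 in replicate 1 and 0.132 in replicate 2 of these nuclei, and the part of depth in the value of 0 was not tested. The cytoplasmic difference was 2.93 ± 0.64 on the log2(FPKM + 1) scale (SE; limma adjusted p = 0.0288).

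Zfp697 was also below 1 FPKM in every WT library and at 0 in replicate 1 of the nuclei labelled Mtr4-null. It stood at 0.425, 0.188 and 0.135 in WT cytoplasms against 4.49, 9.02 and 5.98 FPKM in Mtr4-null ones, a difference of 2.55 ± 0.54 (limma adjusted p = 0.0245). WT nuclei held 0.590, 0.102 and 0.708 FPKM, and replicates 1 to 3 of the nuclei labelled Mtr4-null 0, 2.27 and 6.56. Genes of the Hsd3b family overlap Zfp697 on the opposite strand, and since the use of strand in counting is not given, reads from the 2 strands may not be told apart.

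Zfp503, a transcriptional repressor also called Nolz1 that is known from striatum and limb, stood at 0.725, 0.163 and 0.771 in WT cytoplasms against 5.71, 4.78 and 5.28 FPKM in Mtr4-null ones (2.03 ± 0.49, limma adjusted p = 0.0498). WT nuclei held 0.313, 0.253 and 0.219 FPKM, and replicates 1 to 3 of the nuclei labelled Mtr4-null 0, 0.844 and 5.29, so of these nuclei only replicate 3 was at the level of the Mtr4-null cytoplasms. Zfp316, a KRAB gene, stood at 4.69, 3.04 and 4.09 in WT cytoplasms against 15.2, 15.7 and 23.0 FPKM in Mtr4-null ones (1.93 ± 0.39, limma adjusted p = 0.0183). Its WT level was well above 0, unlike that of the 3 genes before it.

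Zfp607 (now Zfp607a), a KRAB gene, stood at 0.506, 0.127 and 0.0623 in WT cytoplasms against 3.23, 2.37 and 2.40 FPKM in Mtr4-null ones (1.58 ± 0.36, limma adjusted p = 0.0368). WT nuclei held 16.6, 12.1 and 17.5 FPKM, and replicates 1 to 3 of the nuclei labelled Mtr4-null 7.19, 17.4 and 12.5, so it stayed higher in nuclei than in cytoplasms in both genotypes. The 7 listed nuclear RNAs, such as Malat1, summed to 5.48 to 7.80 FPKM in the WT and 5.47 to 10.7 FPKM in the Mtr4-null cytoplasms, and their part in this result was not tested.

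**Figure D1:**
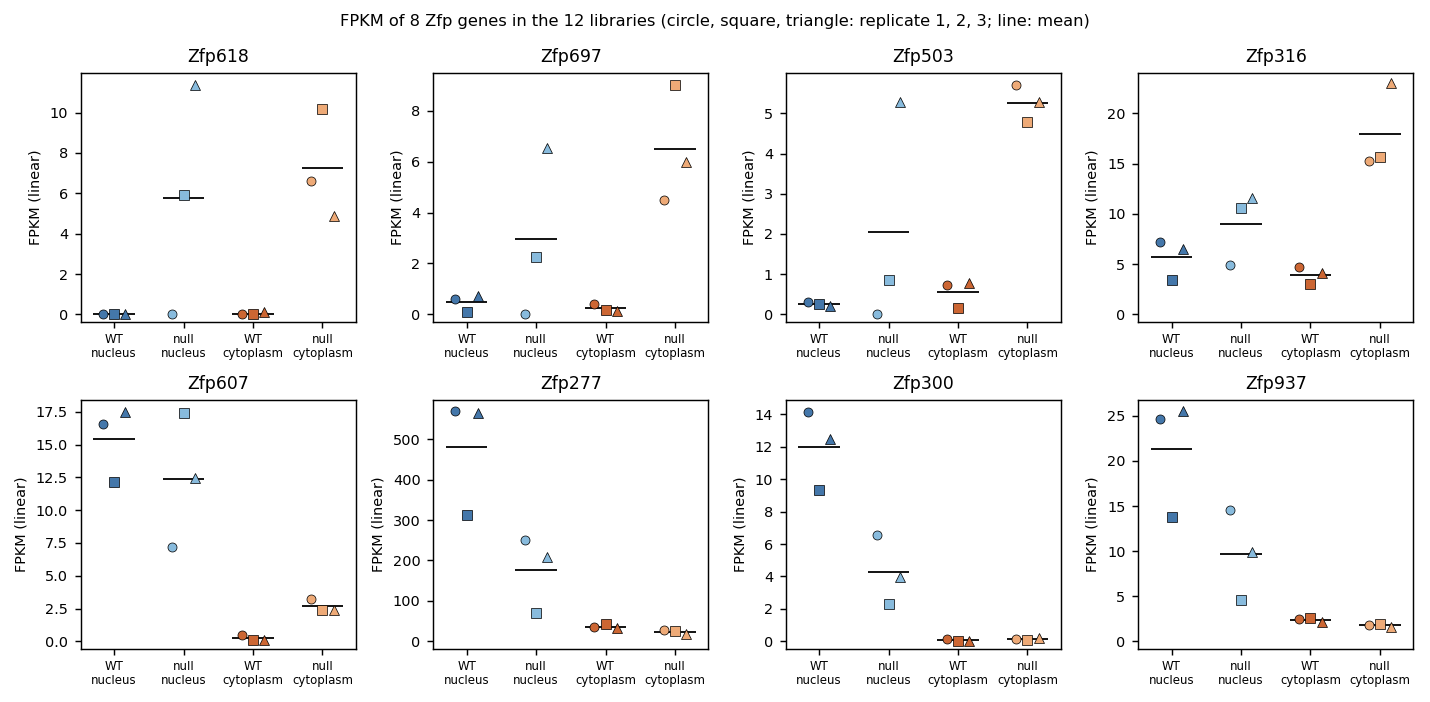
FPKM (linear axis, one panel per gene) of 8 Zfp genes in the 12 libraries, by group, with a symbol per replicate and a line at the group mean. In Zfp618, Zfp697 and Zfp503 the Mtr4-null cytoplasms lie between 4.49 and 10.2 FPKM with the WT cytoplasms below 1 FPKM, while Zfp277, Zfp300 and Zfp937 are highest in WT nuclei.

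The count of 5 moved with the libraries and settings used. Where no share of all genes is given below, the counts show only how the calls move. Without any 1 of the 6 cytoplasm libraries, 0 members were called in the 4-group fit, and under quantile scaling also 0, while median-of-ratios scaling gave 5 higher and 2 lower, a pseudocount of 0.1 gave 2 higher and no filter on low values 1. Without replicate 3 of the nuclei labelled Mtr4-null the counts were 12 higher and 1 lower, and without replicates 1 and 3 they were 23 higher and 9 lower. In a fit of the 6 cytoplasms alone, whose spread does not include that of the nuclei, 44 members were higher and 16 lower, which is 24.7% and 8.99% of the members, beside 13.3% and 9.85% of all genes tested and 12.5% and 10.7% of genes that met the level rule. The 3 Mtr4-null cytoplasms lay above all 3 WT cytoplasms in 65 members and below them in 35, with 22.0% and 23.6% of genes that met the level rule in these orders. All 5 called members kept their sign under both scalings.

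The promoters of the 5 genes called in the cytoplasm and of Zfp277, Zfp300 and Zfp937, which with Zfp607 were higher in the nucleus in both genotypes, are shown because the results turn on these genes, and to let a reader set the sequences side by side. Each run is the 250 bases before the RefSeq start on GRCm38.p6, 5′ to 3′ on the gene's strand, with CG dinucleotides in capitals. This build is not the one the expression values were made with, and no binding or methylation was measured.
Zfp618 (chr4:62965317-62965566, plus strand): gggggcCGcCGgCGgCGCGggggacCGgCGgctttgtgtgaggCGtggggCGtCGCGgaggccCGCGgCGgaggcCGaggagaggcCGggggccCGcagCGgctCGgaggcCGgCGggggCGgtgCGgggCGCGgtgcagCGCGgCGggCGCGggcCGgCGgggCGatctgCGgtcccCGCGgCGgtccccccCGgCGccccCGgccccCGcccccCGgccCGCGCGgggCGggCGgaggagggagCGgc
Zfp697 (chr3:98382231-98382480, plus strand): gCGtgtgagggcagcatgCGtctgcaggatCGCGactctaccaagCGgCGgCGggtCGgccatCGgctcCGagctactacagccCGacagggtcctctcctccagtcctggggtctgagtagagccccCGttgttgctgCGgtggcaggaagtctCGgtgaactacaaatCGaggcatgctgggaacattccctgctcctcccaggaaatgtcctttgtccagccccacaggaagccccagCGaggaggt
Zfp503 (chr14:21989602-21989851, minus strand): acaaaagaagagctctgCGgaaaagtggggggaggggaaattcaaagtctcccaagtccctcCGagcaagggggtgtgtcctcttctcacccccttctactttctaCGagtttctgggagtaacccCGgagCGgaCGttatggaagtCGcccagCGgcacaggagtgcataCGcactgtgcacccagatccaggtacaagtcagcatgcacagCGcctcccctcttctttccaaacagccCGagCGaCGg
Zfp316 (chr5:143270023-143270272, minus strand): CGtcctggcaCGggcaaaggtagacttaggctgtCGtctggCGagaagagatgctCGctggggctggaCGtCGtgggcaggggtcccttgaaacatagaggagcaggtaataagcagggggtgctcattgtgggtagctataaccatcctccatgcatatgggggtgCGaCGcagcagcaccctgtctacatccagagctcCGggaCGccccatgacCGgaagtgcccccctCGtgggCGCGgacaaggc
Zfp607 (chr7:27860335-27860584, plus strand): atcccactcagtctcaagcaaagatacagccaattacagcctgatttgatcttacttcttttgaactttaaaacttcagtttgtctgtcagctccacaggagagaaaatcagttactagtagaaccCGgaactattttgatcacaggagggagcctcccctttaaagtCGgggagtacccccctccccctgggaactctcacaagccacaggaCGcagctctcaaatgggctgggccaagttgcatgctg
Zfp277 (chr12:40445791-40446040, minus strand): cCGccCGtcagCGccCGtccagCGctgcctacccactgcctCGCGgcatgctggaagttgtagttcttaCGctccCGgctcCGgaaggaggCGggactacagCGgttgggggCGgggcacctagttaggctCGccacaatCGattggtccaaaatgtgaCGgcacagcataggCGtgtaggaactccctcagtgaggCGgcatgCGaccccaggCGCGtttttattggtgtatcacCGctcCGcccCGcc
Zfp300 (chrX:21089230-21089479, minus strand): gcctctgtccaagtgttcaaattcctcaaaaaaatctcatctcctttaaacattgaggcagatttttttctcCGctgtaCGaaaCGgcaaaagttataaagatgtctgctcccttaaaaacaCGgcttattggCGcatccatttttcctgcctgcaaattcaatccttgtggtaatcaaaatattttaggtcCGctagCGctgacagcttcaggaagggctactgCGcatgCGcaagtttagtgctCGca
Zfp937 (chr2:150217849-150218098, plus strand): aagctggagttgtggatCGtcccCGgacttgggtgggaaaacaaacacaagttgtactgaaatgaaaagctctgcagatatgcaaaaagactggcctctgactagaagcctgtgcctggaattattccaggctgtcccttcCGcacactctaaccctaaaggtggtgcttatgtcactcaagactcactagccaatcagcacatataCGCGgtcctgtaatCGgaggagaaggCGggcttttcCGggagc
Among the 27025 genes with a listed promoter the median number of CG dinucleotides in this window was 6, and it was 13 in the 145 members matched by symbol. Zfp618 had 48, with 88.8% G and C, Zfp277 had 24, Zfp697 had 16, Zfp316 had 15 and Zfp503 had 13, while Zfp300 had 10, Zfp937 had 8 and Zfp607 had 3. The letters GGGCGG, the core of a GC box, were found 4 times in Zfp618 and 3 times in Zfp277, and in none of the other 6. Of all promoters 32.9% hold them, of the members' promoters 45.5%. The letters CCAAT occurred in Zfp607, Zfp277, Zfp300 and Zfp937 (34.5% of all promoters, 44.1% of members), TATAAA in Zfp300 alone (13.0% and 4.83%) and CCGGAAG, the core of ETS sites, in Zfp316 and Zfp277 (7.05% and 17.9%). Both strands were searched, 1 pair among the 15 matches in these windows overlapped, and a match describes the window only.

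The Zfp proteins fall into classes, read from the longest open reading frames of GENCODE M21 transcripts. A KRAB A box was matched in 77 members with C2H2 fingers, 93 had fingers and no such match, 7 had no finger of the searched spacing, and 1 had no coding transcript. The match was to a sequence pattern, so a gene without a match may still carry a KRAB box. Zfp192, whose current symbol Zkscan8 is that of a KRAB and SCAN family, had no match. The median number of fingers was 12 in the KRAB members and 7 in those with fingers and no match. KRAB members were at a median of 9.01 FPKM and the others with fingers at 12.8 FPKM in WT cytoplasm.

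Finger genes without a KRAB match were more often higher than lower in the Mtr4-null cytoplasms, and KRAB members were split about evenly. In the fit of the 6 cytoplasms alone, 14 of 77 KRAB members were higher and 13 lower in Mtr4-null oocytes, and of the 93 finger genes without a KRAB match 28 were higher and 3 lower. These are 18.2% and 16.9% of the KRAB members and 30.1% and 3.23% of the others, beside the 12.5% and 10.7% of genes that met the level rule. The median log2 difference was -0.04 in KRAB members and 0.23 in those without, -0.02 and 0.25 under median-of-ratios scaling and -0.09 and 0.17 under quantile scaling. The 3 Mtr4-null cytoplasms lay above the WT cytoplasms in 21 KRAB members and below in 23, and above in 41 and below in 11 of those without. In the 4-group fit each class had 2 members called higher and none lower, and the difference between the classes was not tested. By library, the median of KRAB members stood 0.10, -0.24 and 0.01 from the WT mean in Mtr4-null cytoplasm replicates 1 to 3. That of finger genes without a KRAB match stood at 0.33, 0.07 and 0.31.

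**Figure D2:**
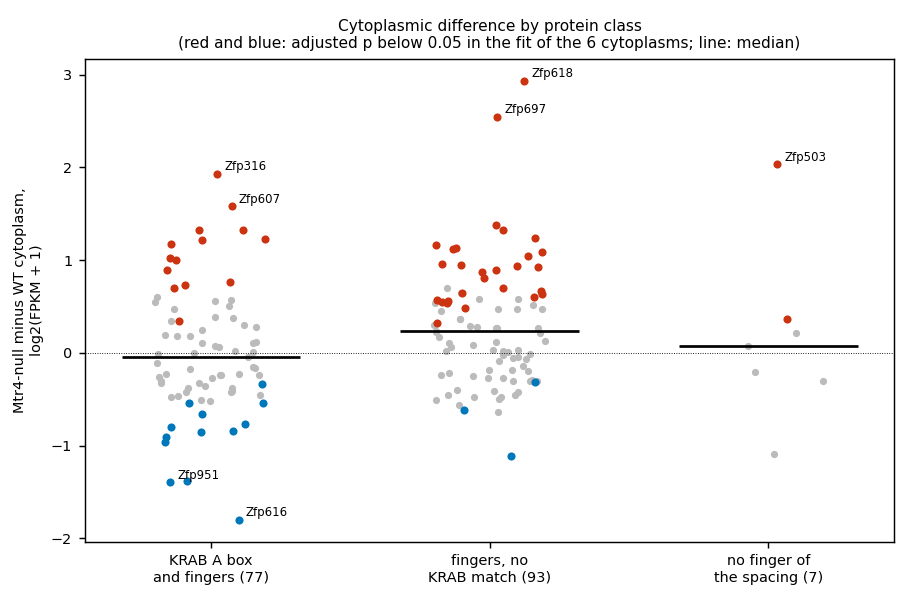
Difference between Mtr4-null and WT cytoplasm in log2(FPKM + 1) for the members of 3 protein classes, 1 point per gene and a line at the class median, with red and blue for genes higher and lower in the fit of the 6 cytoplasms alone. The KRAB class holds 14 red and 13 blue points, and the class with fingers and no KRAB match 28 red and 3 blue.

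Of the 16 members lower in the Mtr4-null cytoplasms in the fit of the cytoplasms alone, Zfp616 had the largest difference. It stood at 27.1, 30.5 and 33.2 in WT cytoplasms against 14.7, 4.56 and 7.27 FPKM in Mtr4-null ones. The difference was -1.80 ± 0.52 (limma adjusted p = 0.101) in the 4-group fit, with limma adjusted p = 0.0219 in the fit of the cytoplasms. Zfp616 stood below WT in the nuclei as well, at 7.64, 1.23 and 8.21 FPKM against 19.4, 9.04 and 15.9 FPKM in WT. Zfp951 stood at 45.9, 30.7 and 35.8 in WT cytoplasms against 17.6, 11.8 and 11.7 FPKM in Mtr4-null ones. Its difference was -1.40 ± 0.47 (limma adjusted p = 0.158) in the 4-group fit, with limma adjusted p = 0.009 in the fit of the cytoplasms. Zfp735, Zfp472, Zfp930, Zfp932, Zfp933, Zfp952, Zfp958, Zfp182, Zfp110, Zfp383 and Zfp58 are the other KRAB genes of this set, and Zfp398, Zfp207 and Zfp296 carry no KRAB match. Zfp58 and Zfp932 shared 51.7% and 39.6% of their 75-base windows with other genes, so their values are uncertain.

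Higher in the same fit were, after the 5 named above, Zfp628, known from male germ cells, and genes with smaller differences. Zfp628 stood at 24.9, 23.2 and 25.2 in WT cytoplasms against 59.9, 57.4 and 81.3 FPKM in Mtr4-null ones. Its difference was 1.38 ± 0.47 (limma adjusted p = 0.165) in the 4-group fit, with limma adjusted p = 0.00337 in the fit of the cytoplasms. Among the abundant members, Zfp212 stood at 106, 109 and 106 in WT cytoplasms against 154, 180 and 158 FPKM in Mtr4-null ones. It differed by 0.61 ± 0.29 (limma adjusted p = 0.413) in the 4-group fit, with limma adjusted p = 0.0072 in the fit of the cytoplasms. Zfp217, an oncoprotein that binds the CtBP and CoREST corepressors, was at 36.1, 33.6 and 36.9 against 59.3, 51.3 and 61.2 FPKM. It differed by 0.67 ± 0.44 (limma adjusted p = 0.644) in the 4-group fit, with limma adjusted p = 0.00726 in the fit of the cytoplasms. In each of these genes the 2 sets of 3 cytoplasms did not overlap, and the call holds in the fit of the cytoplasms only. Zfp687, which forms a complex with ZMYND8 and Zfp592, averaged 30.9 in WT cytoplasms against 45.7 FPKM in Mtr4-null ones, while Zfp592 itself overlapped, at 65.7 ± 6.05 and 71.8 ± 11.9 FPKM.

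Neighbouring members were set side by side, since Zfp genes sit in runs. In RefSeq gene order, 60 members lay in 25 runs of at least 3 coding genes with a Zfp symbol, either current or older (such as Zscan25, formerly Zfp498), and no other coding gene between them. In the run from Zfp786 to Zfp746, the cytoplasmic differences were -1.11 in Zfp398, 0.77 in Zfp282, 0.61 in Zfp212, 0.34 in Zfp777, 0.47 in Zfp746 and 0.27 in Zfp956, so the neighbours Zfp398 and Zfp282 stood on opposite sides of 0. Zfp398 stood at 21.2, 24.6 and 27.0 in WT cytoplasms against 13.6, 11.1 and 7.93 FPKM in Mtr4-null ones, and Zfp282 at 8.40, 7.33 and 7.20 against 14.5, 11.3 and 15.6 FPKM.

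Zfp12 and Zfp316, which adjoin, both stood higher in the Mtr4-null cytoplasms, Zfp12 at 5.73, 6.23 and 6.68 FPKM against 3.25, 2.06 and 2.57 FPKM for WT (1.0 ± 0.32; limma adjusted p = 0.139 in the 4-group fit and 0.0118 in that of the cytoplasms). Zfp472 and Zfp952, also of one run, both stood lower, by -0.97 and -0.80. In the run from Zfp180 to Zfp94, the 6 members Zfp235, Zfp111, Zfp109, Zfp108, Zfp61 and Zfp94 lay between -0.04 and 0.55 with none called in either fit. The runs thus held members that differed in both directions, in one direction, or not detectably.

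In the nucleus, no member was called between nuclei labelled Mtr4-null and WT nuclei in the 4-group fit or in a fit of the nuclei alone, in which 0.0152% of all genes tested were called higher and 0.0228% lower. In the 4-group fit, among all genes tested 0.517% were called higher and 1.75% lower, and among genes that met the level rule 0.684% and 0.545%. At an unadjusted p below 0.05, 19 members were higher and 5 lower, again with no share of all genes at that threshold beside them. Under other scalings members were called: 9 higher and 7 lower with median-of-ratios (3.49% and 4.64% of genes that met the level rule) and 9 and 6 with quantile scaling (4.56% and 4.32%). The median difference over members was 0.14, against 0.04 over all genes tested and 0.15 over genes that met the level rule, and it was -0.02 under median-of-ratios and 0.19 under quantile scaling. The 3 libraries stood far apart: against the WT mean the median member stood at -0.04 in replicate 1, -0.47 in replicate 2 and 1.01 in replicate 3.

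**Figure D3:**
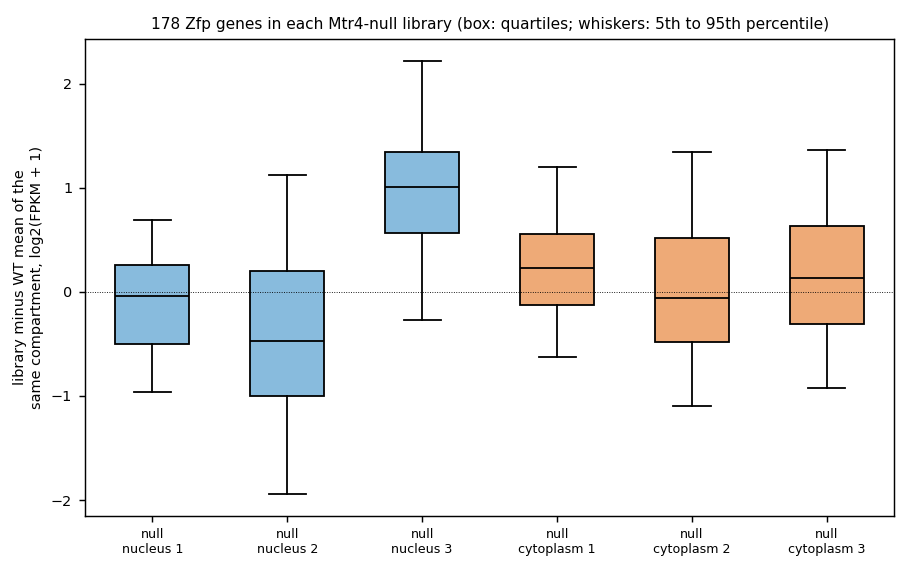
Each Mtr4-null library minus the WT mean of the same compartment, in log2(FPKM + 1), over the 178 members, with boxes from the lower to the upper quartile, a line at the median and whiskers from the 5th to the 95th percentile. The median is 1.01 in nucleus replicate 3, -0.47 in nucleus replicate 2 and between -0.06 and 0.23 in the cytoplasms.

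Of the 3 members nearest to a call, Zfp300 and Zfp277 were at lower and Zfp618 at higher levels in the nuclei labelled Mtr4-null. Zfp300, an X-linked KRAB gene, stood at 14.2, 9.35 and 12.5 in WT nuclei against 6.56, 2.28 and 3.94 FPKM in replicates 1 to 3 of the nuclei labelled Mtr4-null (-1.37 ± 0.34, limma adjusted p = 0.0505). Zfp277 stood at 569, 312 and 564 in WT nuclei against 252, 71.2 and 209 FPKM in replicates 1 to 3 of the nuclei labelled Mtr4-null (-1.57 ± 0.43, limma adjusted p = 0.066). In both genes every library labelled Mtr4-null lay below every WT library. Without replicate 1 of the nuclei labelled Mtr4-null the differences were -1.68 (limma adjusted p = 0.0055) in Zfp300 and -1.92 (0.0176) in Zfp277. Without replicate 3 they were -1.37 (0.0611) and -1.79 (0.0537), and without both -1.97 (0.00239) and -2.69 (0.00112), where the 1 nucleus left is assumed to vary like the other groups. Under median-of-ratios scaling the adjusted p-values (limma) were 0.0134 and 0.00712, and under quantile scaling 0.0167 and 0.0149. Zfp618, with the values given above, differed by 2.14 ± 0.64 (limma adjusted p = 0.0886), by 3.21 (0.000238) without replicate 1, by 1.40 (0.198) without replicate 3 and by 2.79 without both. It met the level rule only through Mtr4-null libraries, so its membership asked for higher values there.

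Zfp937 stood at 24.7, 13.8 and 25.6 in WT nuclei against 14.6, 4.62 and 9.96 FPKM in replicates 1 to 3 of the nuclei labelled Mtr4-null (-1.13 ± 0.39, limma adjusted p = 0.14; 0.0306 without replicate 1, and 0.0237 and 0.0226 under median-of-ratios and quantile scaling). The listed nuclear RNAs, of 7 genes found, summed to 401 to 812 FPKM in WT nuclei and 137 to 360 FPKM in those labelled Mtr4-null, so they stood lower in the same libraries, and their part in the values of Zfp277, Zfp300 and Zfp937 was not tested. On the other side, Zfp513 stood at 23.8, 12.8 and 10.7 in WT nuclei against 22.6, 33.2 and 60.7 FPKM in replicates 1 to 3 of those labelled Mtr4-null (1.22 ± 0.37, limma adjusted p = 0.0919; 0.022 without replicate 1, 0.129 without replicate 3 and 0.0335 without both). Zfp511 and Zfp512, near to a call as well, stood higher too, Zfp512 at 6.09, 5.65 and 8.09 FPKM against 3.11, 2.46 and 3.40 FPKM for WT nuclei (0.92 ± 0.30, limma adjusted p = 0.119; 0.0433 and 0.0166 under median-of-ratios and quantile scaling) and Zfp511 with a log2 difference of 1.32 ± 0.45 (0.131; 0.0237 and 0.0121). Zfp212 was at 41.6, 43.0 and 43.0 against 70.9, 60.4 and 111 FPKM (0.86 ± 0.29, limma adjusted p = 0.127), with no overlap. Over all members, 9 were called higher and 3 lower without replicate 1, and 0 and 2 without replicate 3, so these counts rest on single libraries. No share of all genes is set beside them.

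Between the compartments of WT oocytes, 7 members were higher in the nucleus and 92 lower. Among genes that met the level rule 6.16% were higher and 59.8% lower, beside 3.93% and 51.7% of the members. The median member differed by -1.09, genes that met the level rule by -1.21 and all tested genes by -0.90. Most of the lower calls move with the scaling. With median-of-ratios, which brings the median of all genes to 0.00, 24 members were higher and 16 lower, and with quantile scaling 13 and 26. These counts show how the calls move, and no share of all genes under the same scaling is set beside them. The sign itself turned in 6 and 8 of the 99 called members. The 7 members higher in the nucleus were called under all 3 scalings, and 11 of the 92 lower ones were. Of these 7, Zfp300, Zfp607 and Zfp937 reached 5 FPKM in no cytoplasm, so they are members only through nuclei. The level rule itself thus asked for a higher nuclear value in these genes.

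The 7 were Zfp607, Zfp277, Zfp300, Zfp937, Zfp747, Zfp12 and Zfp113. A KRAB A box was matched in 6 of them, all but Zfp277, beside 77 of the 178 members, and this difference was not tested. Zfp607 had the largest difference, 3.74 ± 0.36 (limma adjusted p = 7.47e-06), with the values given above. Zfp277 was at 34.3, 42.7 and 32.7 FPKM in WT cytoplasms, beside 312 to 569 FPKM in the nuclei (3.64 ± 0.43, limma adjusted p = 4.18e-05). Zfp300 was at 0.163, 0.021 and 0.0347 FPKM in WT cytoplasms, so it was close to 0 there per fragment mapped (3.58 ± 0.34, limma adjusted p = 6.62e-06). Zfp277 was thus the one abundant member on this side, and Zfp300, Zfp607 and Zfp747 were below 1 FPKM in every WT cytoplasm.

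Zfp937 was at 2.51, 2.57 and 2.12 FPKM in WT cytoplasms (2.67 ± 0.39, limma adjusted p = 0.000279), and 18.3% of its windows are shared with other genes, foremost Zfp442. Zfp747 stood at 23.1, 6.75 and 4.42 in WT nuclei against 0.762, 0.715 and 0.664 FPKM in WT cytoplasms (2.55 ± 0.52, limma adjusted p = 0.00174), with 21.4% of its windows shared, so its level is uncertain. Zfp12 was at 9.04, 10.2 and 13.1 FPKM in WT nuclei (1.70 ± 0.32, limma adjusted p = 0.00115), and Zfp113 at 6.87, 6.24 and 5.53 FPKM against 3.60, 2.73 and 2.77 FPKM in cytoplasms (0.84 ± 0.30, limma adjusted p = 0.0275). Of these 7, Zfp607, Zfp747 and Zfp12 were at higher levels in all 3 Mtr4-null cytoplasms than in all 3 WT cytoplasms, Zfp277 and Zfp937 at lower levels, and Zfp300 and Zfp113 overlapped. The nucleus-rich members therefore did not share one cytoplasmic pattern.

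**Figure D4:**
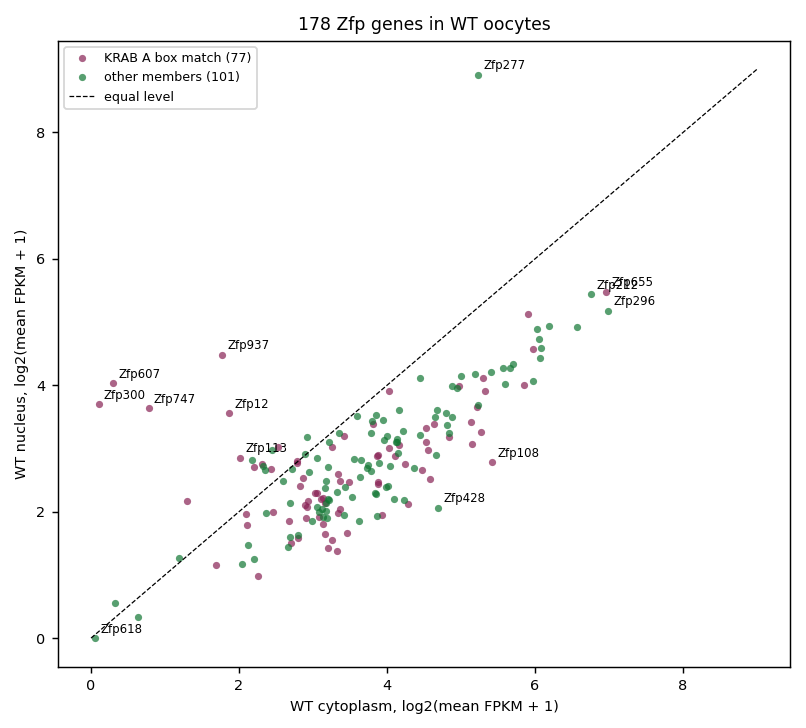
Mean level of the 178 members in WT cytoplasm (horizontal) and WT nucleus (vertical), both in log2(FPKM + 1), with members that matched a KRAB A box in purple and the others in green, and a dashed line at equal level. Zfp277, Zfp300, Zfp607, Zfp937, Zfp747 and Zfp12 lie above the line, and most members lie below it.

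The largest differences toward the cytoplasm were in Zfp428, Zfp108, Zfp109, Zfp593 and Zfp383, followed by Zfp791, Zfp160, Zfp951, Zfp449 and Zfp513. Zfp428 stood at 0, 6.34 and 3.20 in WT nuclei against 27.9, 24.0 and 22.5 FPKM in WT cytoplasms (-3.04 ± 0.59, limma adjusted p = 0.00137). Zfp108, a KRAB gene, stood at 5.68, 3.97 and 7.96 in WT nuclei against 40.3, 41.7 and 43.8 FPKM in WT cytoplasms (-2.68 ± 0.47, limma adjusted p = 0.000822). Zfp428, Zfp108, Zfp383, Zfp791, Zfp951 and Zfp449 were among the 11 called under all 3 scalings. Zfp593, known for a part in ribosome assembly, and Zfp428 each overlap a coding gene on the opposite strand, and reads of the 2 strands may not be told apart.

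In Mtr4-null oocytes, 4 members were higher in nuclei than in cytoplasms, Zfp277 (2.7 ± 0.43, limma adjusted p = 0.0025), Zfp300 (2.11 ± 0.34, 0.00301), Zfp937 (1.84 ± 0.39, 0.018) and Zfp607 (1.80 ± 0.36, 0.0127). Another 61 members were lower. Among all genes tested 4.08% were higher and 28.1% lower, and among genes that met the level rule 3.38% and 36.6%. The 4 higher calls were also made under both scalings and are all among the 7 of the WT comparison, of which they are 57.1%. Zfp300, Zfp937 and Zfp607 are members only through nuclei, so their calls on this side are not independent of the level rule. In a fit of these 6 libraries alone only Zfp300 was called (limma adjusted p = 0.0468), with Zfp277 at 0.0558, Zfp607 at 0.138 and Zfp937 at 0.148 (0.844% of all genes tested were higher in that fit). None of the 61 lower calls was made under either scaling or in that fit (0.0912% of all genes tested were lower). Without replicate 3 of the nuclei labelled Mtr4-null, 144 members were lower, a count with no share of all genes beside it.

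The genotype effect differed between the compartments in 0 members, with 0.0228% of all genes tested called higher and 0.0988% lower (0.0321% and 0.0748% of genes that met the level rule). At an unadjusted p below 0.05, 3 members had a larger difference in the nucleus and 7 a smaller one, with no share of all genes at that threshold given. The smallest adjusted p was that of Zfp607, whose genotype difference was -0.36 in the nucleus and 1.58 in the cytoplasm (interaction -1.94 ± 0.51, limma adjusted p = 0.143). With weights per library, 1 member was called higher and 14 lower, counts with no share of all genes beside them. With both doubted nuclei (labelled Mtr4-null, replicates 1 and 3) left out, only 1 nucleus of that group remained, so calls of that fit are not read here. That Zfp618, Zfp697, Zfp503 and Zfp316 were called in the cytoplasm and not in the nucleus does not show that the compartments differed: their interactions were -0.79, -1.53, -1.19 and -1.38, with limma adjusted p-values of 0.841, 0.544, 0.642 and 0.378. Without replicate 1 of the nuclei labelled Mtr4-null, Zfp618 was called in the nucleus too, as given above. So was Zfp697 (1.79, limma adjusted p = 0.0144), which differed by 1.18 without replicates 1 and 3. In the same fit without replicate 1, Zfp503 (1.43, 0.0517) and Zfp316 (0.90, 0.154) were not called. The replicate left out listed Zfp618 and Zfp697 at 0, and both met the level rule only through Mtr4-null libraries. Their membership thus asked for higher Mtr4-null values, so these 2 calls lend a nuclear difference no support.

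Of 22 genes listed for a known role, 14 were members, counting Zfp24 under its older symbol Zfp191. Another 7 were in the table below the level rule: Zfp42 (Rex1, of embryonic stem cells) reached at most 3.07 FPKM, Zfp809 (a silencer of retroviruses) 6.57 FPKM in 1 library, Zfp292 2.96, Zfp326 2.85, Zfp369 0.659 and Zfp462 0.122 FPKM, and Zfp131 was listed at 0 in all libraries. Zfp638 was not in the table under this symbol. None of the 14 was called between genotypes in the 4-group fit.

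Zfp445, which protects imprinted methylation beside ZFP57, stood at 13.8, 13.7 and 13.7 in WT cytoplasms against 15.4, 11.8 and 14.8 FPKM in Mtr4-null ones (0.01 ± 0.46, limma adjusted p = 1). Zfp568, a repressor of a placental Igf2 transcript, was at 19.8, 22.3 and 24.3 against 27.5, 25.7 and 26.2 FPKM (0.25 ± 0.36, limma adjusted p = 0.932), without overlap. Zfp110 (NRIF, a partner of the p75 neurotrophin receptor) was at 9.17, 9.41 and 9.21 against 6.54, 5.94 and 5.75 FPKM (-0.54 ± 0.47, limma adjusted p = 0.813; 0.0259 in the fit of the cytoplasms).

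Among regulators without a KRAB match, Zfp207 stood at 62.5, 67.9 and 67.1 in WT cytoplasms against 52.5, 34.5 and 42.5 FPKM in Mtr4-null ones. It differed by -0.62 ± 0.56 (limma adjusted p = 0.824, and 0.0377 in the fit of the cytoplasms). Zfp143, a promoter factor, averaged 15.1 ± 1.31 and 11.5 ± 5.09 FPKM, and Zfp281, a repressor known from embryonic stem cells, 7.33 ± 1.47 and 11.5 ± 2.57 FPKM, with overlap in both. Zfp451, a SUMO ligase, averaged 24.0 ± 0.701 and 17.5 ± 3.52 FPKM without overlap, and Zfp91, a ubiquitin ligase, 27.2 ± 2.80 and 22.6 ± 3.56 FPKM with overlap. Zfp410, the activator of Chd4, averaged 9.03 ± 0.471 and 11.1 ± 1.17 FPKM, Zfp335, known from neural progenitors, 8.05 ± 0.809 and 10.1 ± 1.27, and Zfp191, needed for myelination, 12.4 ± 2.61 and 18.9 ± 3.27 FPKM, each without overlap (SD, n = 3). Zfp106, an RNA-binding protein of motor neurons, and Zfp148, a factor of G-rich promoters, overlapped, at 16.9 ± 0.476 against 18.1 ± 1.30 and 9.77 ± 0.898 against 7.93 ± 2.04 FPKM. None of these differences passed the 4-group fit.

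The genes with which KRAB proteins work ranged widely in level, with Trim28 and Setdb1 well above the median member and Cbx3 below it. Trim28 stood at 163, 145 and 155 in WT cytoplasms against 166, 215 and 189 FPKM in Mtr4-null ones (0.29 ± 0.31, limma adjusted p = 0.867), and Setdb1 at 91.7, 102 and 104 against 115, 89.4 and 107 FPKM (0.06 ± 0.37, limma adjusted p = 1). Of the 24 genes tested from a list of 25 corepressor, heterochromatin and SUMO genes, 0 were called between genotypes in the cytoplasm and 0 in the nucleus, with 0 and 1 at an unadjusted p below 0.05. In the fit of the cytoplasms alone 2 were higher, Cbx3 and Daxx, and 4 lower, Hdac2, Mphosph8, Pphln1 and Mbd1. In that fit 13.3% of all genes tested were higher and 9.85% lower. Cbx3, a heterochromatin protein, stood at 5.59, 5.31 and 4.96 in WT cytoplasms against 10.1, 8.31 and 9.71 FPKM in Mtr4-null ones. It differed by 0.72 ± 0.42 (limma adjusted p = 0.571) in the 4-group fit, with limma adjusted p = 0.0158 in the fit of the cytoplasms. Mbd1 was at 15.4, 13.6 and 12.9 against 8.33, 7.03 and 7.83 FPKM. It differed by -0.78 ± 0.42 (limma adjusted p = 0.5) in the 4-group fit, with limma adjusted p = 0.0108 in the fit of the cytoplasms. In WT oocytes 17 of the 24 were lower in nuclei and none higher, and 10 were lower in Mtr4-null oocytes, beside the 59.8% and 36.6% of genes that met the level rule. Under median-of-ratios and quantile scaling 8 and 4 were called in WT and 1 and 0 in Mtr4-null oocytes.

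The other zinc finger families (52 tested genes named Zkscan, Zscan, Zbtb, Znf or Zik with a number) had 0 calls between genotypes in the cytoplasm. At an unadjusted p below 0.05, 5 were higher and 0 lower, with no share of all genes beside these counts. In the fit of the cytoplasms alone 13 were higher and 0 lower, where 13.3% of all genes tested were higher and 9.85% lower. Their median cytoplasmic difference was 0.17, beside 0.08 over the members. The 94 Zfp genes tested below the level rule had 0 calls in the cytoplasm and a median of 0.09. In WT oocytes 4 of the 52 were higher in nuclei and 27 lower, and of the 94 lower-level Zfp genes 10 were higher and 19 lower. Among genes that met the level rule 6.16% were higher and 59.8% lower, a share that does not serve for the 94, which lie below that rule.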

How the data were processed

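RNA was measured in 12 libraries of 4 groups of 3. Per the labels' protocols, TRIzol extraction of total RNA and ribosomal RNA depletion preceded sequencing of 150 bp pairs. The authors deposited FPKM per gene, and per the submitters' processing notes TopHat2 2.1.1, Cufflinks 2.2.1 and mm9 were used; the sources used here give neither annotation nor strand setting. Read counts were not used here, so absolute depth is unknown.

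Genes with at least 1 FPKM in 3 libraries (13157) were tested in limma 3.58.1 (R 4.3.3) on log2(FPKM + 1), which understates changes of low genes, with 4 group means and trended variances, for 5 comparisons. P-values are two-sided, adjusted by Benjamini and Hochberg over all genes tested, with calls below 0.05. Values after ± are SEs of log2 differences and SDs of FPKM. The SEs are those of the 4-group fit, also where the adjusted p of another fit is given. The fit was tested on simulated data. The groups, tests and alternatives follow the labels; the members, lists and rule for named genes were chosen with earlier results of these data known. Named are called members without overlap (10 largest each way), those nearest to a call, the 8 most abundant per WT compartment, listed genes of known role, and members of runs; others named were chosen after their values were seen.

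Fingers were matched as C2H2 with 2 to 4, 12 and 3 to 5 residues between, in open reading frames translated from GENCODE M21 in place of a protein table. Shared sequence was the share of 75-base windows found in another gene's transcripts. RefSeq promoters (GRCm38.p6) were matched by current symbol. Gene runs are adjacent Zfp genes in RefSeq order. Scripts used Python with pandas and matplotlib. No 2 libraries held identical values. Each group has 3 labelled libraries, where the series' design mentions duplicates.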

Additional observations from a re-analysis of the deposited data

How the results depend on the processing

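Counts of calls moved with most choices, and where no cause is given it was not tested. The counts in this section show how the calls move and have no share of all genes beside them. For members higher or lower in Mtr4-null than in WT cytoplasm (5 and 0), the count higher was 2 with a pseudocount of 0.1, 1 with no filter on low values, 0 under quantile normalization and 2 among members at 10 FPKM in 3 libraries; the count lower was 2 under median-of-ratios scaling; both were 44 and 16 in a fit of the 2 groups alone, 65 and 23 with library weights, and 23 and 9 without Mtr4-null nuclei 1 and 3. For the nucleus (0 and 0), the counts were 9 and 7 under median-of-ratios scaling, 9 and 6 under quantile normalization, 9 and 43 without both nuclei, and 1 lower with library weights and 1 lower among all tested Zfp symbols. For WT nucleus against cytoplasm (7 and 92), they were 24 and 16 under median-of-ratios scaling, 13 and 26 under quantile normalization, 4 higher at the 10 FPKM rule and 17 higher among all tested Zfp symbols. For Mtr4-null nucleus against cytoplasm (4 and 61), the count higher was 7 under median-of-ratios scaling, 1 in the fit of the 2 groups alone and 8 among all tested Zfp symbols; the count lower was 0 under both scalings and in the fit of the 2 groups alone, 7 with no filter, 141 with library weights and 137 without both nuclei. For the interaction (0 and 0), 1 was lower under median-of-ratios scaling, 1 was higher and 14 lower with library weights, and 2 and 17 without both nuclei.

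Leaving out 1 library at a time gave 0 to 12 higher and 0 to 3 lower in the cytoplasm (0 and 0 without any 1 cytoplasm, 3 higher without WT nucleus 1, 12 and 1 without Mtr4-null nucleus 3, 3 lower without Mtr4-null nucleus 2), 0 to 9 higher and 0 to 3 lower in the nucleus (9 and 3 without Mtr4-null nucleus 1, 3 higher without Mtr4-null nucleus 2, 2 lower without Mtr4-null nucleus 3 and 2 lower without WT nucleus 2), 58 to 118 lower in WT nuclei (58 without WT nucleus 2), 2 to 5 higher and 0 to 144 lower in Mtr4-null nuclei (2 higher without Mtr4-null cytoplasm 2 or 3; 144 lower without Mtr4-null nucleus 3; 0 or 1 lower without any 1 cytoplasm or without Mtr4-null nucleus 1 or 2), and 0 to 5 lower in the interaction (5 without Mtr4-null nucleus 3).

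Of the TRIM28 list, 6 genes differed in cytoplasm in the fit of the 2 groups alone and 10 with library weights, and 5 in the nucleus and 1 in the interaction without both nuclei; in WT compartments (17) 8 and 4 were called under median-of-ratios and quantile scaling. Between Mtr4-null compartments (10) it was 6 with the pseudocount of 0.1, 3 with no filter, 1 and 0 under the 2 scalings, 0 in the fit alone, 18 with library weights, 21 without both nuclei and 0 to 22 with 1 library left out. Of the other zinc finger families, 13, 18 and 3 differed in cytoplasm in the fit alone, with library weights and without both nuclei (0 to 1 with 1 library left out), 5, 5 and 13 in the nucleus under median-of-ratios, quantile and without both nuclei (0 to 2), 12 and 11 between WT compartments under the 2 scalings (31), and 6, 1, 1, 0, 36 and 36 between Mtr4-null compartments (18) with no filter, the 2 scalings, the fit alone, library weights and without both nuclei (0 to 40). Their interaction gave 1 under median-of-ratios, 3 with library weights and 4 without both nuclei. Over all Zfp symbols the difference in summed share between the nuclei was -0.0454 percentage points, against 0.0136 over the members.

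With the replicate block, 1 member was called lower in the cytoplasm and 1 in the nucleus, and no other count of members moved by over 1.5 times. The numbers did not pair the samples: correlations of same-numbered deviations ran from -0.154 to 0.303, and not every library went best with its own number. Absolute depth is unknown, and nuclear libraries were the shallower by the relative estimate, so low nuclear values limit what could be detected there.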
